A study of Mus musculus with 16 samples.

Results

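The genes that encode the subunits of the glutamate, GABA and glycine receptors were followed in cultured mouse organs of Corti. They were all genes of the authors' normalized expression table whose symbols begin with the stems of the AMPA, NMDA, kainate, delta and metabotropic glutamate, GABA-A, GABA-B and glycine receptor families. This gave 45 of 21220 genes: 4 AMPA, 6 NMDA, 5 kainate, 2 delta, 7 metabotropic glutamate, 16 GABA-A, 2 GABA-B and 3 glycine receptor genes. Organs of Corti, the strips of hair cells and supporting cells that sense sound, were taken from C57BL/6 mice at postnatal day 0 and kept in culture for 3.5 days. The 4 groups were heterozygous Rest(+/deltaExon4) cultures given 2 nM FK228, heterozygous cultures given 0.1% DMSO as solvent, wild-type cultures given 2 nM FK228 and wild-type cultures given solvent, with 4 libraries each and 16 in all. Exposure ran from day 1 to 1.5 and again from day 3 to 3.5 in culture, and RNA pooled from 6 to 8 cultures made 1 library. Rest encodes a zinc finger repressor that keeps neuronal genes silent with the help of histone deacetylases, and FK228 (romidepsin) inhibits class I histone deacetylases. The heterozygous mice lack exon 4 of 1 Rest allele.

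Glutamate opens AMPA, NMDA and kainate receptor channels, which are tetramers of related subunits, and it acts more slowly through the metabotropic receptors, which couple to G proteins. GABA-A and glycine receptors are pentameric chloride channels, and GABA-B receptors are dimers that couple to G proteins. In the cochlea, inner hair cells release glutamate onto AMPA receptors of spiral ganglion neurons, while efferent fibres use acetylcholine and GABA. Whether a subunit can work depends on its partners: an NMDA receptor needs the Grin1 subunit, a GABA-B receptor needs both of its subunits, and a Gria2 subunit that has been edited makes an AMPA receptor nearly impermeable to calcium.

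The libraries held 12361027 to 14153838 gene counts in heterozygous FK228 cultures, 14627922 to 15674930 in heterozygous solvent cultures, 16224586 to 17656274 in wild-type FK228 cultures and 17462876 to 23611571 in wild-type solvent cultures. The 45 receptor genes took only 1795 to 4435 of these counts per library, so most members were measured on few reads. Levels below are in CPM, gene counts scaled to the library size with TMM factors. A gene was called higher or lower when its Benjamini-Hochberg adjusted p in edgeR's quasi-likelihood test, over all 17125 genes tested, was under 0.05. Rest itself was at 75.8 to 87.3 CPM in heterozygous FK228 libraries, 78.1 to 94.8 CPM in heterozygous solvent libraries, 69.9 to 79.9 CPM in wild-type FK228 libraries and 75.2 to 86.4 CPM in wild-type solvent libraries, and it was called in no comparison (TMM scaling). These counts cover the whole gene and so do not check the lost exon. Whether libraries of 1 group came from different litters is not stated in the labels, and each p-value therefore rests on the spread among these pools alone.

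Of the 45 receptor genes, 33 had enough counts to be tested. The other 12 included Gabrd, Gabrp, Gabrr1, Gabrr2, Gabbr2, Glra1, Glra2, Grm5, Grin1 and Grin2d. Of the 33 tested genes, 22 reached a mean of 10 counts in all 4 groups, and 3 reached it in 1 group only. Summed over the 45 genes, receptor transcripts made up 155 ± 12.7 CPM in heterozygous FK228 cultures and 215 ± 24.9 CPM in heterozygous solvent cultures, and 151 ± 8.42 CPM in wild-type FK228 cultures and 194 ± 11.9 CPM in wild-type solvent cultures (SD, n = 4 each). The 4 FK228 sums lay below the 4 solvent sums in both genotypes. In RNA from whole cultures, fewer cells of a type and less RNA per cell cannot be told apart.

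Levels between genes were compared as CPM per kb of exon, averaged over all 16 libraries. Glrb, the glycine receptor beta subunit that binds the scaffold gephyrin, stood far above the rest at 12.9 CPM per kb. Gria3, an AMPA receptor subunit, followed at 2.52 CPM per kb, then Gabbr1 at 1.55, Gabra4 at 1.37, Gabra3 at 1.21 and Grm3 at 1.01 CPM per kb. The range within families was wide, and several abundant subunits lacked counts of the subunit they are known to pair with. Glrb had 15438 counts over the 16 libraries, while its alpha partners Glra1 and Glra2, which carry the glycine binding site, had 66 and 26 counts. Gabbr1, the subunit that binds GABA, had 3112 counts, while Gabbr2, the subunit that couples to G proteins, had 38 counts. Grin1, the obligatory NMDA receptor subunit, had 62 counts, against 1066 counts of Grin2a and 2055 counts of Grin2b. Most Grin2b counts were heterozygous, 369 with FK228 and 1412 with solvent, and in wild type it had 141 with FK228 and 133 with solvent, where Grin2a had 121 with FK228 and 516 with solvent. Among GABA-A genes Gabra4 and Gabra3 led. The library chemistry started at the poly(A) tail. The reads carried no strand, and reads on exons shared with another gene were left out of the gene counts as ambiguous. Levels of genes with such exons, Grin1 and Glra1 among them, may therefore be too low.

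**Figure D1:**
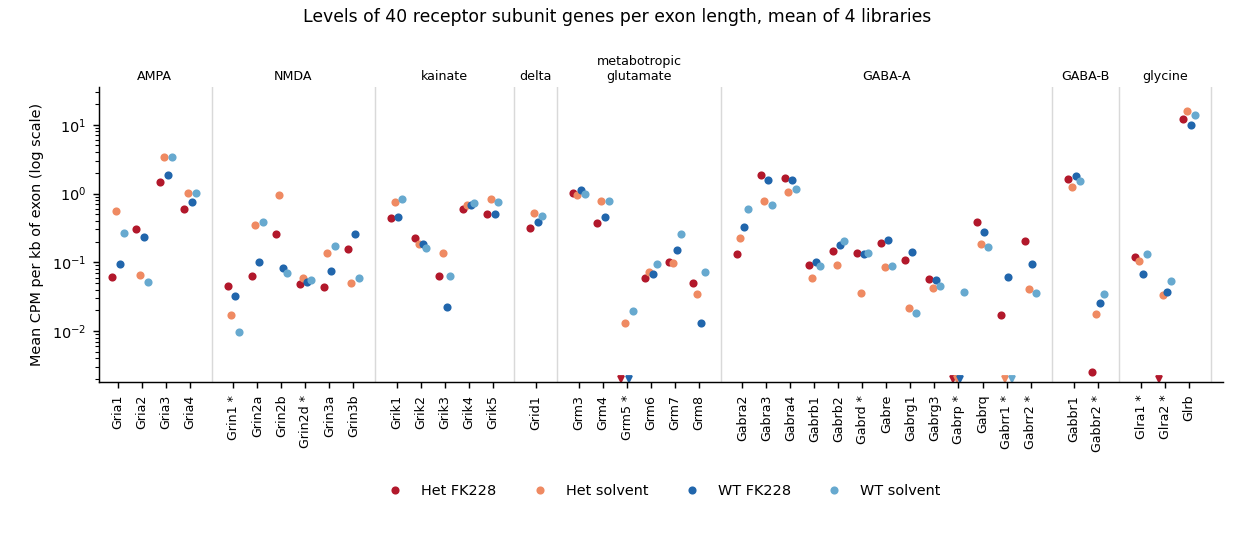
Mean level of 40 receptor subunit genes in CPM per kb of exon (log axis) in heterozygous FK228, heterozygous solvent, wild-type FK228 and wild-type solvent cultures, by family, each point being the mean of 4 libraries. Asterisks mark the 10 of them that were not tested, triangles mark levels at or under 0.002 CPM per kb, and Glrb at a mean of 12.9 CPM per kb stands above all others.

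FK228 changed the make-up of the receptor genes in both genotypes. In wild-type cultures 14 of the 33 tested genes were called (42.4%), 5 higher and 9 lower, and over all 17125 genes tested 49% were called, 23.7% higher and 25.3% lower. In heterozygous cultures 15 of 33 were called (45.5%), 4 higher and 11 lower, against 48.4% of all genes, 23.8% higher and 24.7% lower. The share of receptor genes called was therefore near that of all genes. FK228 and solvent libraries did not overlap for 8 receptor genes in wild type and 14 in heterozygous cultures, that is 24.2% and 42.4% of those tested, against 44.7% and 42.6% of all genes. Their median log2 fold change, FK228 over solvent, was -0.31 in wild type and -0.19 in heterozygous cultures, where the median of all genes was -0.01 and 0.00. Gria2 and Gabra3 were higher in both genotypes, and 7 genes were lower in both, among them Gria1, Gria3, Grin2a, Grin3a, Grik5 and Glrb. Another 5 genes were called in wild type alone and 6 in heterozygous cultures alone, while 13 were called in neither. No receptor gene was called for a difference between the genotypes' FK228 effects in edgeR (0 of 33, with 3 at an unadjusted p under 0.05), nor in DESeq2, and 0.0234% of all genes were called. When the libraries were scaled to the ERCC spike-in RNA in place of TMM factors, the median of all genes moved to -0.16 in wild type and -0.72 in heterozygous cultures. Then 4 receptor genes were higher and 12 lower in wild type, with 1 higher and 16 lower in heterozygous cultures. Among all genes called with this scaling, 30.8% were higher in wild type and 7% in heterozygous cultures. The share of all genes that it called is not given here, so these counts are not set against it.

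**Figure D2:**
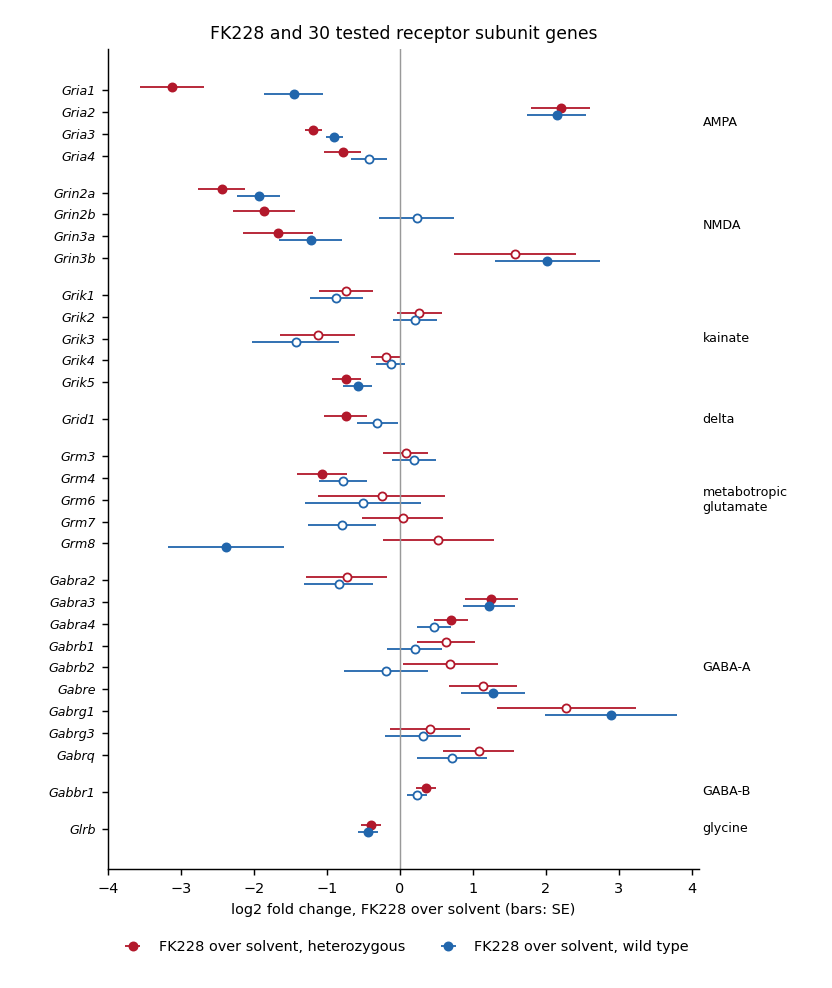
Log2 fold change of FK228 over solvent (x axis, bars: SE) for 30 of the 33 tested receptor subunit genes, in heterozygous and in wild-type cultures, ordered by family. Filled points have an adjusted p under 0.05 (14 of the genes drawn in heterozygous and 12 in wild-type cultures), and Gria2 lies to the right of 0 in both genotypes while Gria1, Gria3 and Gria4 lie to the left.

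The AMPA receptor genes moved in opposite directions with FK228. Gria2 encodes the subunit whose edited form blocks calcium entry through AMPA receptors, and it lies at chr3:80681450-80802835 on the minus strand (GRCm38). In wild-type cultures it was at 4.88, 2.66, 2.29 and 4.87 CPM with FK228, against 1.22, 0.385, 1.01 and 0.632 CPM with solvent. In heterozygous cultures Gria2 was at 3.55, 4.96, 5.41 and 4.88 CPM with FK228, against 0.559, 0.589, 2.09 and 0.822 CPM with solvent. Every FK228 library lay above every solvent library of the same genotype. The log2 fold change was 2.15 ± 0.40 (SE, adjusted p = 0.000243) in wild type and 2.20 ± 0.41 (SE, adjusted p = 0.000204) in heterozygous cultures, that is 4.45-fold and 4.61-fold. It remained called in each of the 26 alternative fits in both genotypes, and with spike-in scaling it was 1.99 in wild type and 1.54 in heterozygous cultures.

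Gria1, whose subunit is trafficked to synapses with activity, was at 0.908, 0.363, 0.423 and 0.623 CPM with FK228 in wild type, against 2.26, 1.76, 0.841 and 1.55 CPM with solvent. In heterozygous cultures Gria1 was at 0.227, 0.620, 0.405 and 0.236 CPM with FK228, against 2.52, 3.54, 2.15 and 5.2 CPM with solvent. Its groups overlapped in wild type and stood apart in heterozygous cultures. The log2 fold change was -1.46 ± 0.41 (SE, adjusted p = 0.00636) in wild type and -3.12 ± 0.44 (SE, adjusted p = 1.2e-05) in heterozygous cultures. The heterozygous FK228 side rests on few reads, 21 counts of Gria1 in all and 3 to 9 per library. Gria3, the AMPA subunit gene with the highest level per kb, was at 16.9, 21.3, 18 and 16.3 CPM with FK228 in wild type, against 28.8, 39.2, 34.3 and 32.7 CPM with solvent. In heterozygous cultures Gria3 was at 14.2, 17, 12.5 and 14.5 CPM with FK228, against 34.6, 35.9, 30.1 and 31.6 CPM with solvent. The groups did not overlap in either genotype. Gria3 fell by 0.90 ± 0.12 on the log2 scale in wild type (SE, adjusted p = 6.27e-06) and by 1.19 ± 0.12 in heterozygous cultures (adjusted p = 3.16e-07). Gria4, which encodes the remaining AMPA subunit, ranged over 3.28 to 6.22 CPM with FK228 in wild type, against 4.65 to 7.85 CPM with solvent, and over 2.5 to 5.82 CPM with FK228 in heterozygous cultures, against 5.52 to 7.33 CPM with solvent. It passed the test in heterozygous cultures alone, at -0.78 ± 0.25 (SE, adjusted p = 0.0164), where the call was lost without FK228 library 2 or 4 (adjusted p up to 0.0598), while its wild-type value was -0.42 ± 0.24 (SE, adjusted p = 0.161).

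**Figure D3:**
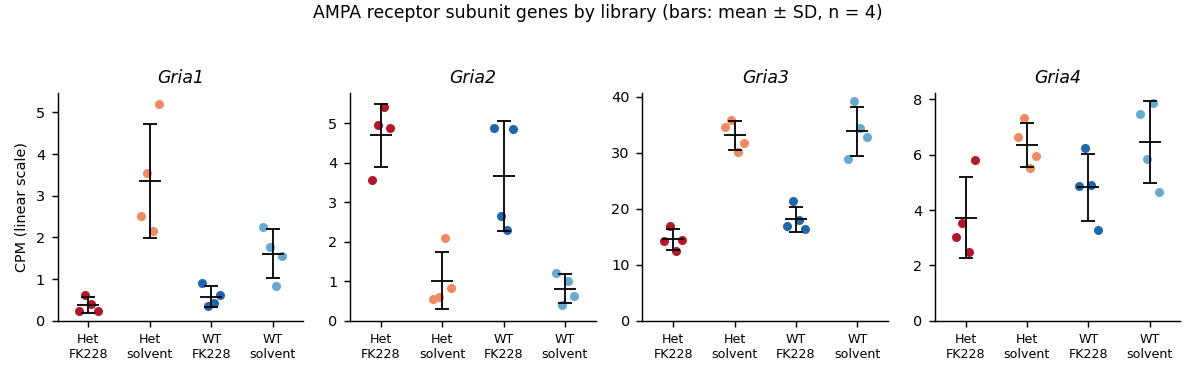
CPM of the 4 AMPA receptor subunit genes in each library (points; black bars: mean ± SD, n = 4) for heterozygous FK228, heterozygous solvent, wild-type FK228 and wild-type solvent cultures, on linear axes that differ between panels. Gria2 is higher in all FK228 libraries than in the solvent libraries of its genotype, while Gria3 is lower in all of them.

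Gria2 made up a larger part of the AMPA transcript pool with FK228, and Gria3 was the main component in all 4 groups. Per exon length, Gria2 made up 12.6% ± 2.8 of the summed AMPA subunit level in heterozygous FK228 cultures and 1.37% ± 1.12 in heterozygous solvent cultures (SD, n = 4 each). In wild type its share was 8.26% ± 3.64 with FK228 and 1.11% ± 0.533 with solvent. The share of Gria3 was 61% ± 5.41 with FK228 and 67.4% ± 2.96 with solvent in heterozygous cultures, and 62.6% ± 3.12 with FK228 and 71.8% ± 5.75 with solvent in wild type. The shares of a library add up to 100, so they describe the mixture and are not separate measurements. The summed AMPA level ranged over 20.8 to 26.1 CPM with FK228 and 39.9 to 47.3 CPM with solvent in heterozygous cultures, and over 25.1 to 30.6 CPM with FK228 and 39.5 to 47.2 CPM with solvent in wild type.

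**Figure D4:**
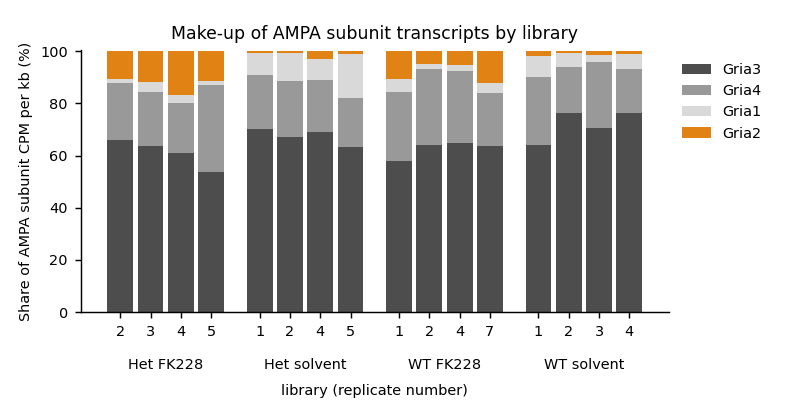
Share of each AMPA receptor subunit gene in the summed AMPA CPM per kb (y axis, %) of each library, in heterozygous FK228, heterozygous solvent, wild-type FK228 and wild-type solvent cultures, with the replicate number under each bar. The Gria2 share lies between 5.06% and 16.7% in FK228 libraries and between 0.475% and 3.04% in solvent libraries.

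The promoter of Gria2 is shown because it holds the closest match, among the members, to the RE1 element that REST binds. RefSeq promoters (build GRCm38.p6, 250 bases before to 50 after the start of a transcript) were found for 29 of the 45 members, 36 promoters in all. They were searched on both strands for CAGCACC, 2 bases of any kind (N) and GGACAG, with at most 2 mismatches over the 13 compared bases. A match was present in 4 of the 36 member promoters (11.1%) and in 1.92% of all 32851 promoters, and a match with at most 1 mismatch in 1 member promoter and in 0.186% of all. The Gria2 promoter, chr3:80802786-80803085 on the minus strand, holds a match with 1 mismatch on the opposite strand that starts 170 bases before the transcript start, marked in capitals:
Gria2: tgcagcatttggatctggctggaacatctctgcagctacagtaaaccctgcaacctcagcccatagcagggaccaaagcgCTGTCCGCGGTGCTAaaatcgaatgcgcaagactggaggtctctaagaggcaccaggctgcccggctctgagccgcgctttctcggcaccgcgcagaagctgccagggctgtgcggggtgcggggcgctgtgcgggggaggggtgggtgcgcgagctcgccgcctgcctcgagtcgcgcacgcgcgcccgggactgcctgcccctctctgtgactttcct
The other matches had 2 mismatches each. They are given with 20 bases on either side, in the orientation of the gene and with the match in capitals, for Grin1 (chr2:25319279-25319333, minus strand, match on the opposite strand), Gabrb1 (chr5:71699792-71699846, plus strand) and Grik2 (chr10:49788839-49788893, minus strand):
Grin1: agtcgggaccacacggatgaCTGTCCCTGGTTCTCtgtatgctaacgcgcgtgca
Gabrb1: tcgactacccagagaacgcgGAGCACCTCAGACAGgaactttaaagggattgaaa
Grik2: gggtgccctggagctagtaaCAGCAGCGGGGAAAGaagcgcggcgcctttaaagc
Grin1, the obligatory NMDA subunit, had too few counts for a test, and neither Gabrb1 nor Grik2 was called in any comparison. The log2 fold change of Gabrb1, FK228 over solvent, was 0.20 in wild type and 0.63 in heterozygous cultures, and that of Grik2 was 0.21 and 0.27. A match of this kind describes the letters of the window and does not show that REST binds there.

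Of the NMDA receptor genes, Grin2a and Grin3a were lower with FK228 in both genotypes. Grin2a, a glutamate-binding subunit typical of mature synapses, was at 1.42, 1.87, 2.29 and 1.53 CPM with FK228 in wild type, against 7.1, 7.54, 5.1 and 7.53 CPM with solvent. In heterozygous cultures Grin2a was at 0.454, 2.14, 0.811 and 1.1 CPM with FK228, against 4.68, 6.29, 6.06 and 7.74 CPM with solvent. The groups did not overlap in either genotype. Grin2a changed by -1.94 ± 0.29 (SE, adjusted p = 2.99e-05) on the log2 scale in wild type and by -2.44 ± 0.32 (SE, adjusted p = 5.51e-06) in heterozygous cultures. Grin3a, a glycine-binding subunit that lowers calcium entry, was at 0.397, 0.786, 1.81 and 0.623 CPM with FK228 in wild type, against 1.26, 1.6, 2.58 and 3.04 CPM with solvent. In heterozygous cultures Grin3a was at 0.529, 0.414, 0.405 and 0.787 CPM with FK228, against 1.54, 1.05, 1.48 and 2.74 CPM with solvent. The wild-type groups overlapped and the heterozygous groups did not. Its log2 fold change was -1.22 ± 0.43 (SE, adjusted p = 0.0246) in wild type and -1.67 ± 0.48 (SE, adjusted p = 0.00758) in heterozygous cultures. The wild-type call was lost without FK228 library 1, 2 or 7 or solvent library 3 or 4, and with the replicate number as a block (adjusted p up to 0.087). Grin3b, a close relative of Grin3a, was called higher in wild type at 2.02 ± 0.72 (SE, adjusted p = 0.0273), on 114 counts over the 16 libraries. It reached a mean of 10 counts in wild-type FK228 libraries alone (59 counts in all, against 16 with solvent). It passed the filter through wild-type FK228 libraries 1, 4 and 7 and heterozygous FK228 library 3, all of the treatment in which it was high. The exons of Grin3b overlap those of Tmem259 on the other strand, and reads of the shared stretch were counted for neither gene. The call was lost without FK228 library 4 or 7 or solvent library 2, 3 or 4, and with the replicate number as a block (adjusted p up to 0.0784). Grin2b is described with the genotypes below.

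Kainate receptor genes were lower or not called. Grik5, a kainate subunit that works only with a partner of the Grik1 to Grik3 group, was at 2.27, 2.66, 2.42 and 3.0 CPM with FK228 in wild type, against 3.84, 3.8, 3.65 and 4.2 CPM with solvent. In heterozygous cultures Grik5 was at 2.95, 2.14, 2.1 and 3.23 CPM with FK228, against 3.5, 4.84, 3.84 and 5.07 CPM with solvent. All FK228 libraries lay below all solvent libraries of the same genotype. The log2 fold change was -0.58 ± 0.20 (SE, adjusted p = 0.0216) in wild type and -0.73 ± 0.20 (SE, adjusted p = 0.00595) in heterozygous cultures, and the wild-type call was lost without FK228 library 1 or 4 or solvent library 4 (adjusted p up to 0.0606 over the libraries left out). Grik4, which has the highest level per kb of the family as a mean over the 16 libraries, though not in either solvent group, and pairs in the same way, was at 3.52, 3.5, 5.07 and 3.96 CPM with FK228 in wild type, against 3.75, 4.35, 5.83 and 3.56 CPM with solvent. In heterozygous cultures Grik4 was at 3.25, 4.27, 3.65 and 2.91 CPM with FK228, against 3.92, 3.47, 4.24 and 4.45 CPM with solvent. The Grik4 groups overlapped in both genotypes. Its log2 fold change had an interval of -0.54 to 0.30 in wild type and of -0.62 to 0.25 in heterozygous cultures (95% confidence). Spike-in scaling, where the median of all genes was -0.72, gave a heterozygous value of -0.90 for Grik4 (adjusted p = 0.00541).

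Grik1 and Grik3 encode kainate subunits that form channels of their own. Grik1 was at 2.04, 4.83, 2.48 and 2.72 CPM with FK228 in wild type, against 6.78, 5.67, 4.32 and 5.29 CPM with solvent. In heterozygous cultures Grik1 was at 1.74, 2.62, 3.72 and 3.86 CPM with FK228, against 5.87, 1.7, 7.95 and 4.38 CPM with solvent. The groups overlapped in both genotypes, and neither log2 fold change passed the test, -0.87 ± 0.36 (SE, adjusted p = 0.0527) in wild type and -0.73 ± 0.37 (SE, adjusted p = 0.111) in heterozygous cultures. Grik3 was at 0.227, 0.181, 0.0604 and 0.340 CPM with FK228 in wild type, against 0.316, 1.16, 0.617 and 0.172 CPM with solvent. In heterozygous cultures Grik3 was at 0.529, 0.414, 0.743 and 0.551 CPM with FK228, against 1.12, 1.18, 2.02 and 0.616 CPM with solvent. These groups overlapped too, on 160 counts over all libraries, and Grik3 was not called, with -1.43 ± 0.60 (SE, adjusted p = 0.0553) in wild type and -1.13 ± 0.52 (SE, adjusted p = 0.0787) in heterozygous cultures. Both genes passed the wild-type test in some of the alternatives, Grik1 at adjusted p = 0.0385 in DESeq2 and Grik3 at adjusted p = 0.0382 with spike-in scaling. Spike-in scaling also called both lower in heterozygous cultures, Grik1 at -1.46 (adjusted p = 0.00136) and Grik3 at -1.81 (adjusted p = 0.00467).

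Delta receptors bind cerebellins and organise synapses. Grid1, a delta subunit, was at 1.93, 2.42, 2.96 and 1.75 CPM with FK228 in wild type, against 3.44, 3.25, 1.4 and 3.1 CPM with solvent. In heterozygous cultures Grid1 was at 1.81, 1.65, 2.23 and 1.73 CPM with FK228, against 3.08, 2.42, 4.45 and 2.53 CPM with solvent. Wild-type groups overlapped, with solvent library 3 below the others, and heterozygous groups did not. Grid1 was called in heterozygous cultures alone, at -0.74 ± 0.29 (SE, adjusted p = 0.0442), and that call was lost in 8 of 16 fits with a library left out (adjusted p up to 0.172).

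Among metabotropic glutamate receptors, no gene was called in both genotypes with edgeR and TMM factors. Grm4 was lower in both with spike-in scaling, at -0.92 (adjusted p = 0.0394) in wild type and -1.81 (adjusted p = 0.000158) in heterozygous cultures. DESeq2 also called it lower in wild type (-0.765, adjusted p = 0.0457). Grm3, an inhibitory receptor also found on glia and the member of the family with the highest level per kb, was at 3.41, 3.87, 2.78 and 3.57 CPM with FK228 in wild type, against 3.25, 1.71, 2.24 and 4.71 CPM with solvent. In heterozygous cultures Grm3 was at 2.04, 4.69, 2.43 and 3.07 CPM with FK228, against 2.94, 2.23, 3.84 and 2.6 CPM with solvent. The groups overlapped, and the 95% interval of its log2 fold change was -0.44 to 0.82 in wild type and -0.57 to 0.73 in heterozygous cultures. Grm4, a presynaptic inhibitory receptor, was at 1.99, 3.38, 3.5 and 1.98 CPM with FK228 in wild type, against 4.16, 5.01, 5.16 and 4.25 CPM with solvent. In heterozygous cultures Grm4 was at 1.13, 2.41, 3.45 and 1.81 CPM with FK228, against 3.92, 2.29, 5.12 and 7.33 CPM with solvent. Groups were apart in wild type and overlapped in heterozygous cultures. The test passed in heterozygous cultures, at -1.07 ± 0.34 (SE, adjusted p = 0.0151), though not without FK228 library 2 or solvent library 5 (adjusted p up to 0.0773), and missed in wild type, at -0.78 ± 0.33 (SE, adjusted p = 0.0585). Grm8, of the same presynaptic class, was at 0.114, 0.242, 0 and 0.170 CPM with FK228 in wild type, against 0.588, 0.990, 0.337 and 0.977 CPM with solvent. In heterozygous cultures Grm8 was at 0.227, 0, 0.878 and 0.866 CPM with FK228, against 0.140, 0.524, 0.135 and 0.548 CPM with solvent. A count of 3 stands for 0.136 to 0.236 CPM in these libraries, so several of the Grm8 values rest on 3 reads or fewer. It reached a mean of 10 counts in wild-type solvent libraries alone (54 counts in all, against 9 with FK228). It passed the filter through wild-type solvent libraries 2 and 4 and heterozygous FK228 libraries 4 and 5, so in part through the wild-type group in which it was high. In wild type it was called lower at -2.39 ± 0.80 (SE, adjusted p = 0.0191), which was lost without FK228 library 4 (adjusted p = 0.0559), while heterozygous cultures gave 0.53 ± 0.76 (SE, adjusted p = 0.595).

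In the GABA-A family most log2 fold changes were above 0 with FK228, 7 of 11 tested in wild type and 9 of 11 in heterozygous cultures (7 and 4 of 11 with spike-in scaling). Gabra3, an alpha subunit abundant in the developing nervous system, was at 8.46, 4.89, 2.84 and 8.66 CPM with FK228 in wild type, against 2.67, 2.37, 2.97 and 2.64 CPM with solvent. In heterozygous cultures Gabra3 was at 6.65, 8.2, 7.77 and 6.06 CPM with FK228, against 3.63, 1.05, 5.12 and 2.26 CPM with solvent. In wild type 1 FK228 library fell among the solvent libraries, and in heterozygous cultures the groups did not overlap. Gabra3 was higher by 1.22 ± 0.36 (SE, adjusted p = 0.00889) on the log2 scale in wild type and by 1.25 ± 0.36 (SE, adjusted p = 0.00831) in heterozygous cultures, but with spike-in scaling the heterozygous value was 0.55 (adjusted p = 0.165). With the replicate number as a block the wild-type value of Gabra3 was 1.01 (adjusted p = 0.0587). Its neighbours Gabre and Gabrq lie with it in a gene cluster on the X chromosome, which held 6.22 to 11.8 CPM in all with FK228 and 3.53 to 4.62 CPM with solvent in wild type. In heterozygous cultures the cluster held 8.42 to 11.8 CPM with FK228 and 1.9 to 6.33 CPM with solvent. All 3 genes of the cluster had log2 fold changes above 0 in both genotypes, a direction that the filter favoured for Gabre. In wild type the values were 1.28 for Gabre (adjusted p = 0.0227) and 0.72 for Gabrq (adjusted p = 0.229). In heterozygous cultures these were 1.13 for Gabre (adjusted p = 0.0519) and 1.08 for Gabrq (adjusted p = 0.0735). The wild-type call of Gabre was lost without FK228 library 4 or 7 or solvent library 1, and with spike-in scaling (adjusted p up to 0.0876).

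Gabra4, an alpha subunit of receptors outside synapses, was at 9.08, 8.28, 9.6 and 11.8 CPM with FK228 in wild type, against 11, 4.68, 4.99 and 7.18 CPM with solvent. In heterozygous cultures Gabra4 was at 7.49, 10.7, 11.6 and 11.7 CPM with FK228, against 7.13, 4.91, 6.33 and 7.12 CPM with solvent. The heterozygous groups were apart and the wild-type groups overlapped, solvent library 1 being high. It was called higher in heterozygous cultures at 0.70 ± 0.24 (SE, adjusted p = 0.0206), a direction that flipped to -0.04 with spike-in scaling and a call that was lost without FK228 library 4 or 5 or solvent library 2 (adjusted p up to 0.0666). The wild-type value was 0.47 ± 0.23 (SE, adjusted p = 0.103), and it passed without solvent library 1 (log2 fold change 0.79, adjusted p = 0.00449). The exons of Gabra4 and Gabrb1 overlap, so reads of the shared stretch cannot be assigned to either. Gabrg1, a gamma subunit, was called higher in wild type at 2.89 ± 0.90 (SE, adjusted p = 0.0129), where it ranged over 0.0604 to 2.16 CPM with FK228 and 0 to 0.402 CPM with solvent. That call was lost without FK228 library 1 and with the replicate number as a block (adjusted p up to 0.0702). Gabrg1 and Gabre reached a mean of 10 counts in the FK228 groups of both genotypes and in neither solvent group, so both were tested only through the groups in which they were high. With TMM factors Gabra2, Gabrb1, Gabrb2 and Gabrg3 were not called with FK228 in either genotype. Spike-in scaling called Gabra2 lower in heterozygous cultures (adjusted p = 0.0143).

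Gabbr1 and Glrb, the only tested genes of the GABA-B and glycine families, had small log2 fold changes. Gabbr1 was at 14.9, 12.9, 13.2 and 15.1 CPM with FK228 in wild type, against 8.99, 12.9, 12.6 and 13.3 CPM with solvent. In heterozygous cultures Gabbr1 was at 10.6, 12.7, 12.8 and 13.8 CPM with FK228, against 8.81, 11.5, 8.89 and 9.66 CPM with solvent. The groups overlapped in both genotypes, and solvent library 1 of wild type stood below the other 3. Gabbr1 passed the test in heterozygous cultures at 0.36 ± 0.14 (SE, adjusted p = 0.0455), a call lost in 12 of 16 fits with a library left out, and its direction flipped to -0.37 with spike-in scaling. The wild-type value was 0.24 ± 0.14 (SE, adjusted p = 0.167). Glrb was at 52.9, 54.1, 43.9 and 36.6 CPM with FK228 in wild type, against 66.9, 53.5, 57.1 and 76.4 CPM with solvent. In heterozygous cultures Glrb was at 60.5, 59.9, 54.9 and 48.5 CPM with FK228, against 65.6, 61.9, 83 and 83.6 CPM with solvent. The wild-type groups overlapped by 1 library, and the heterozygous groups did not overlap. Glrb was lower by -0.44 ± 0.14 (SE, adjusted p = 0.0134) on the log2 scale in wild type and by -0.39 ± 0.14 (SE, adjusted p = 0.0244) in heterozygous cultures. These calls were lost without wild-type FK228 library 7 or solvent library 4, and without heterozygous FK228 library 4 or 5 or solvent library 4 or 5 (adjusted p up to 0.08). Both were also lost with the replicate number as a block (adjusted p = 0.113 in wild type and 0.0566 in heterozygous cultures). Glrb and Gria2 are neighbours on chromosome 3, 40.8 kb apart, and moved in opposite directions with FK228.

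Between the genotypes 1 receptor gene stood out. With solvent, 1 of 33 tested genes was called in edgeR, against 2.03% of all genes, and 6 had an unadjusted p under 0.05. That gene was Grin2b, the glutamate-binding NMDA subunit that dominates in immature neurons, at chr6:135713233-136173511 on the minus strand. It was at 17.3, 22.3, 31.1 and 24.8 CPM in heterozygous solvent cultures, against 1.85, 2.15, 1.96 and 1.03 CPM in wild-type solvent cultures. Every heterozygous library lay above every wild-type library. The log2 fold change, heterozygous over wild type, was 3.76 ± 0.47 (SE, adjusted p = 0.00011), or 13.6-fold, and it remained called in all 26 alternative fits. The exons of Grin2b overlap those of the noncoding genes Gm14329, Gm26653 and Gm22892 on the other strand, and reads of the shared stretches were counted for none of these genes. None of the other 21 tested genes within 1 Mb of Grin2b was called with solvent. With FK228 2 of them were higher in heterozygous cultures, Hebp1 at 0.81 (adjusted p = 0.0263) and Dusp16 at 0.58 (adjusted p = 0.0374), and the solvent value of Hebp1 was 0.71 (adjusted p = 0.0623).

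FK228 lowered Grin2b in heterozygous cultures. There it was at 6.43, 10.8, 7.97 and 0.708 CPM with FK228, and in wild-type cultures at 0.908, 2.24, 2.17 and 2.94 CPM with FK228. Heterozygous FK228 library 5 lay below the 4 wild-type FK228 libraries and the other 3 lay above them. Against heterozygous solvent cultures the log2 fold change was -1.87 ± 0.42 (SE, adjusted p = 0.00136), while in wild type it was 0.23 ± 0.51 (SE, adjusted p = 0.734). The difference between the 2 effects was -2.10 ± 0.67 (SE, adjusted p = 0.575) and was not called. With FK228, 0 of 33 receptor genes were called between the genotypes in edgeR, with 6 at an unadjusted p under 0.05 and 0 called in DESeq2, against 2.14% of all genes. With spike-in scaling 17 were called in that comparison, all lower, where the median of all genes was -0.74. Among all genes called there with that scaling, 0.747% were higher, so the lower calls were not particular to receptor genes. With TMM factors Grin2b was at 1.66 ± 0.47 (SE, adjusted p = 0.084) in that comparison, and without heterozygous FK228 library 5 its adjusted p was 0.000892. Gria1 in solvent, at 1.05 ± 0.36 (SE, adjusted p = 0.196), was not called. For Gria2 the log2 fold change, heterozygous over wild type, had a 95% interval of -0.63 to 1.24 with solvent and -0.40 to 1.11 with FK228.

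**Figure D5:**
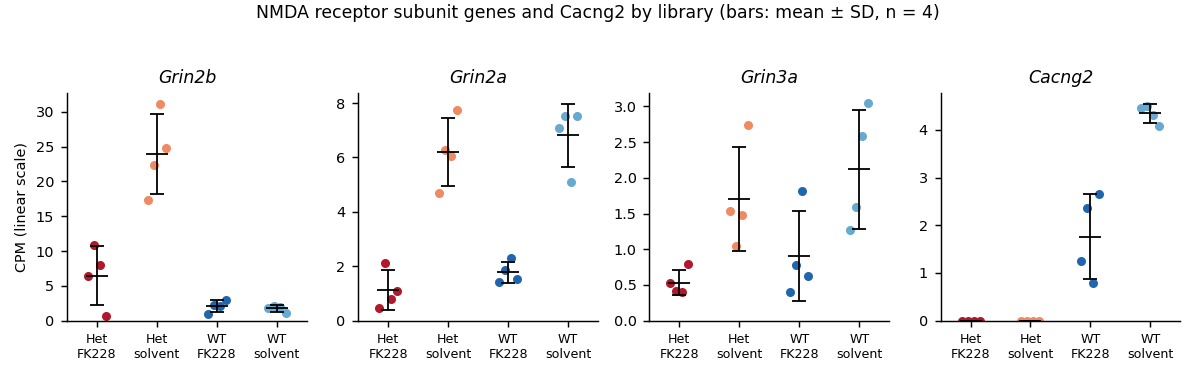
CPM of 3 NMDA receptor subunit genes and of Cacng2 in each library (points; black bars: mean ± SD, n = 4) for heterozygous FK228, heterozygous solvent, wild-type FK228 and wild-type solvent cultures, on linear axes that differ between panels. Grin2b is between 17.3 and 31.1 CPM in heterozygous solvent libraries and at most 2.94 CPM in wild-type libraries, and Cacng2 is at 0 in all 8 heterozygous libraries.

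Genes whose products carry, anchor or supply the receptors were read from 4 lists. Of 45 glutamate receptor partners 40 were tested, and FK228 raised 10 and lowered 7 in wild type (42.5% called, against 49% of all genes) and raised 13 and lowered 8 in heterozygous cultures (52.5%, against 48.4%). Cacng2 encodes stargazin, which brings AMPA receptors to the cell surface. It had 0 counts in all 8 heterozygous libraries, against 1.25, 2.36, 0.785 and 2.66 CPM in wild-type FK228 libraries and 4.47, 4.51, 4.32 and 4.08 CPM in wild-type solvent libraries. Set against a floor of 3 counts per library, Cacng2 was at least 20.7-fold lower in heterozygous than in wild-type cultures with solvent (adjusted p = 3.2e-05) and at least 7.47-fold lower with FK228 (adjusted p = 0.000385). The wild-type libraries with FK228 all lay below those with solvent (adjusted p = 0.00866). Of the other 36 tested genes within 1 Mb of Cacng2, Pvalb was lower in heterozygous cultures in both treatments, at -1.10 with FK228 (adjusted p = 0.0118) and -1.10 with solvent (adjusted p = 0.00994), and Ift27 was lower with FK228 at -0.32 (adjusted p = 0.0386). These neighbours of Grin2b and Cacng2 are named because they were called. Grip1, a scaffold that holds the tails of the Gria2 and Gria3 subunits, averaged 6.63 ± 1.17 CPM with FK228 and 21 ± 3.52 CPM with solvent in wild type, and 7.41 ± 0.782 CPM with FK228 and 17.8 ± 1.52 CPM with solvent in heterozygous cultures (SD, n = 4 each). Its log2 fold change was -1.67 ± 0.14 (SE, adjusted p = 5.11e-08) in wild type and -1.26 ± 0.15 (SE, adjusted p = 1.41e-06) in heterozygous cultures. Cacng8, a relative of stargazin, was higher with FK228 by 1.64 ± 0.23 (SE, adjusted p = 1.53e-05) in wild type and 1.31 ± 0.25 (SE, adjusted p = 0.000239) in heterozygous cultures. Shank1, a scaffold of excitatory synapses, was higher by 0.86 ± 0.16 (SE, adjusted p = 0.000268) in wild type and 1.16 ± 0.17 (SE, adjusted p = 1.72e-05) in heterozygous cultures, where spike-in scaling gave 0.60 for Cacng8 (adjusted p = 0.0781) and 0.43 for Shank1 (adjusted p = 0.0688).

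All 12 genes of glutamate transport and metabolism were tested, and with FK228 6 were higher and 4 lower in wild type (83.3% called, against 49% of all genes) and 6 higher and 3 lower in heterozygous cultures (75%, against 48.4%). Slc17a7, a vesicular glutamate transporter, averaged 2.6 ± 0.910 CPM with FK228 and 0.360 ± 0.0603 CPM with solvent in wild type, and 2.23 ± 0.905 CPM with FK228 and 0.0508 ± 0.0646 CPM with solvent in heterozygous cultures (adjusted p = 2.47e-05 and 1.1e-06). A count of 3 stands for 0.196 to 0.21 CPM in heterozygous solvent libraries, so their Slc17a7 mean lies below that floor. Gls2, a glutaminase that makes glutamate, was higher with FK228 by 2.52 ± 0.30 (SE, adjusted p = 1.96e-06) on the log2 scale in wild type and 2.75 ± 0.31 (SE, adjusted p = 1.05e-06) in heterozygous cultures. Slc1a1, a neuronal glutamate transporter, was higher by 2.11 ± 0.32 (SE, adjusted p = 3.21e-05) in wild type and 2.17 ± 0.34 (SE, adjusted p = 3.62e-05) in heterozygous cultures. Slc1a2, a transporter best known from astrocytes, was lower, at -1.06 ± 0.11 (SE, adjusted p = 6.14e-07) in wild type and -0.96 ± 0.12 (SE, adjusted p = 2.02e-06) in heterozygous cultures. Of 14 genes of GABA and glycine handling 10 were tested, and with FK228 2 were higher and 3 lower in wild type (50% called, against 49% of all genes) and 1 was higher and 1 lower in heterozygous cultures (20%, against 48.4%). Abat, the transaminase that breaks down GABA, was higher at 1.05 ± 0.10 (SE, adjusted p = 1.2e-07) in wild type and 1.13 ± 0.10 (SE, adjusted p = 5.15e-08) in heterozygous cultures. Slc6a9, a glycine transporter, was lower at -1.64 ± 0.23 (SE, adjusted p = 1.35e-05) in wild type and -1.57 ± 0.24 (SE, adjusted p = 3.05e-05) in heterozygous cultures. With TMM factors Shmt2, which makes glycine in mitochondria, was called lower in wild type only, at -0.52 ± 0.11 (SE, adjusted p = 0.000714). Aldh5a1, which completes GABA breakdown, was called in no comparison with those factors. Spike-in scaling called both lower with FK228 in heterozygous cultures, Shmt2 at -0.85 (adjusted p = 0.00021) and Aldh5a1 at -0.94 (adjusted p = 0.00363). With TMM factors neither of these handling lists held a gene called between the genotypes, in either treatment. With spike-in scaling Slc17a7 was called lower in heterozygous solvent cultures (-2.86, adjusted p = 0.046), where its mean lies below the 3-count floor. With FK228 that scaling called Slc17a7, Slc1a2, Abat, Slc6a9 and Shmt2 lower in heterozygous cultures, where the median of all genes was -0.74.

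Of 19 partners of GABA and glycine receptors 18 were tested, and with FK228 5 were higher and 3 lower in wild type (44.4% called, against 49% of all genes) and 5 higher and 2 lower in heterozygous cultures (38.9%, against 48.4%). Lhfpl4, which is needed to gather GABA-A receptors at synapses, averaged 1.67 ± 0.360 CPM in heterozygous solvent cultures and 6.77 ± 1.8 CPM in wild-type solvent cultures, and 5.23 ± 0.916 CPM in heterozygous FK228 cultures and 10.2 ± 1.27 CPM in wild-type FK228 cultures (SD, n = 4 each). It was lower in heterozygous cultures with both treatments, and with FK228 the log2 fold change was -0.96 ± 0.20 (SE, adjusted p = 0.0154). Slitrk3, an organiser of inhibitory synapses, was lower in heterozygous solvent cultures at -0.95 ± 0.21 (SE, adjusted p = 0.0229). With TMM factors Lhfpl4 and Slitrk3 were the only partners of inhibitory receptors called between the genotypes, and Cacng2 was the only partner of glutamate receptors. With spike-in scaling Lhfpl4 and Slitrk3 were called lower in heterozygous cultures in both treatments. With FK228 that scaling moved the median of all genes to -0.74 and also called Grip1, Cacng8, Shank1, Gabarapl2, Clptm1 and Gabarap lower. Clptm1, which holds GABA-A subunits back in the endoplasmic reticulum, was higher with FK228 by 0.65 ± 0.09 (SE, adjusted p = 6e-06) in wild type and 0.53 ± 0.09 (SE, adjusted p = 5.6e-05) in heterozygous cultures. Of the GABA-A receptor-associated protein family, Gabarapl2 was higher by 0.75 ± 0.07 (SE, adjusted p = 1.35e-07) in wild type and 0.82 ± 0.07 (SE, adjusted p = 4.98e-08) in heterozygous cultures, and Gabarap was lower by -0.40 ± 0.07 (SE, adjusted p = 8e-05) in wild type and -0.24 ± 0.07 (SE, adjusted p = 0.00621) in heterozygous cultures. With spike-in scaling the heterozygous values were -0.17 for Clptm1 (adjusted p = 0.321) and 0.11 for Gabarapl2 (adjusted p = 0.468). The FK228 comparisons of the 2 genotypes use separate libraries, while each genotype comparison shares its libraries with the FK228 comparisons.

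Markers of some cell types in the cultures were called more often than all genes, and those of others were not. The 18 spiral ganglion neuron markers summed to 686 to 834 CPM in heterozygous FK228 libraries and 451 to 590.0 CPM in heterozygous solvent libraries, and to 812 to 1180.0 CPM in wild-type FK228 libraries and 625 to 923 CPM in wild-type solvent libraries. FK228 raised 8 and lowered 5 of them in wild type (72.2% called, against 49% of all genes) and raised 10 and lowered 3 in heterozygous cultures (72.2%, against 48.4%). Between the genotypes with solvent, 7 were lower and 0 higher in heterozygous cultures (38.9%, against 2.03% of all genes). All 10 markers of Schwann cells and satellite glia found were tested, and FK228 raised 1 and lowered 6 in wild type (70% called) and raised 1 and lowered 7 in heterozygous cultures (80%). They summed to 231 to 305 CPM with FK228 and 485 to 529 CPM with solvent in heterozygous cultures, and to 284 to 337 CPM with FK228 and 475 to 599 CPM with solvent in wild type. Of 15 hair cell markers FK228 raised 1 and lowered 8 in wild type (60% called) and raised 1 and lowered 6 in heterozygous cultures (46.7%). Of 12 supporting cell markers it raised 0 and lowered 4 in wild type (33.3%) and raised 0 and lowered 6 in heterozygous cultures (50%). Endothelium and pericyte markers, 7 in all, had 0 raised and 2 lowered in wild type (28.6%) and 0 raised and 3 lowered in heterozygous cultures (42.9%). Melanocyte markers, 4 tested, had 0 raised and 3 lowered in wild type (75%) and 0 called in heterozygous cultures. Of 10 mesenchyme and fibroblast markers FK228 raised 1 and lowered 9 in wild type (100%) and raised 1 and lowered 8 in heterozygous cultures (90%). They summed to 2330 to 2650 CPM with FK228 and 4100 to 5450 CPM with solvent in heterozygous cultures. In wild type they summed to 2290 to 2850 CPM with FK228 and 3930 to 5080 CPM with solvent. All 11 macrophage markers were lower with FK228 in both genotypes, with sums of 35.2 to 48.2 CPM with FK228 and 315 to 466 CPM with solvent in heterozygous cultures and 54.9 to 70.2 CPM with FK228 and 454 to 552 CPM with solvent in wild type. The part of these shifts in the receptor results was not tested. The labelled tissue was represented: hair cell markers summed to at least 374 CPM and supporting cell markers to at least 2190.0 CPM in every library.

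Gria2 itself was compared with all genes tested for how its level moved from library to library within a group. After each group's mean was taken away, the 8 genes with the highest Pearson correlation of log2 CPM over the 16 libraries included Tmcc2, Scp2, Rnf13, Wbp1, Tsen15, Snx3 and Serpini1, with r between 0.859 and 0.88. They were picked from 17125 genes for this likeness, share libraries and depth with Gria2, and are given as a description.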

How the data were processed

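RNA from 16 pools of cultured organs of Corti was sequenced in 126-base read pairs. The authors deposited gene-level read counts of every library, obtained with STAR 2.5.2a, and a table of counts divided by size factors (unit signal), made with DESeq2, both on build GRCm38.p4 per the submitters' processing notes. The unstranded count column was used, since 49.8% to 49.9% of reads fell on either strand. The deposited signal values gave whole reads in 100% of cases (tolerance 0.001), and a test of those reads called 14 receptor genes for FK228 in wild type and 15 in heterozygous cultures. Rows that name no gene stayed out of library sizes, and reads outside genes were 11.2% to 22.2%.

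Gene counts were fitted with edgeR 4.0.16 (R 4.3.3; quasi-likelihood test, TMM factors, 4 groups in 1 model, Benjamini-Hochberg adjustment over 17125 genes that passed filterByExpr with a minimum count of 10 and a minimum total of 15). Contrasts were FK228 against solvent in each genotype, heterozygous against wild type in each treatment, and their interaction. CPM values use the same factors, SE is the log2 fold change divided by the root of the quasi-likelihood F, and intervals are 95%. A count of 3 served as the floor, which covers counting error only. The code was tested on simulated data. Libraries of a group differed beyond sampling noise in their counts over genes.

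Per-library values are given for Gria2, for each member called between genotypes, and in each family for the member with the highest level per kb and the 2 with the smallest FK228 p in each genotype. Of each partner list up to 4 genes with the smallest p are named. Some genes that these rules name are not reported here. The members and lists were chosen with earlier results of these data known. Alternatives were DESeq2 1.42.0, RLE and ERCC spike-in scaling, no filter and a stricter filter (50 counts in 4 libraries), the 2 groups of a contrast alone, a replicate block, Y-linked transcripts as a covariate and each library left out in turn. Leaving out both libraries that had the smallest fraction of their reads outside genes, and counts recovered from the normalized table, were added after seeing the data.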

Additional observations from a re-analysis of the deposited data

Results flagged for a closer look

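In 72 sets of 4 libraries (18 named genes in 4 groups), 2 had a library so far from the other 3 that Dixon's ratio of gap to range passed its 95% critical value. Chance flags about 1 in 20 sets, so 2 of 72 is no more than chance gives. Gabbr1 was at 8.994 CPM in wild-type solvent library 1, with the others between 12.56 and 13.27 CPM. Grid1 was at 1.402 CPM in wild-type solvent library 3, with the others between 3.103 and 3.435 CPM. Wild-type solvent library 1 also had, after heterozygous solvent library 4, the smallest fraction of its reads outside genes (11.7%, against 11.2%), and its part in the Gabbr1 value was not tested.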

How the results depend on the processing

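Of the named genes' values under the alternatives, 2091 kept their direction and side of the threshold, 44 gained a call, 55 lost one, and 97 that passed the test under neither setting changed sign (61 with 1 library left out, 15 with ERCC spike-in scaling and 21 with other alternatives). Another 5 values changed sign and passed the test under only 1 of the 2 settings, all with ERCC spike-in scaling: FK228 in heterozygous cultures for Gabbr1 (-0.366) and Gabra4 (-0.0418), and heterozygous against wild type with FK228 for Gabra4 (-0.65), Glrb (-0.472) and Grik5 (-0.726), where the median of all genes moved to -0.72 and -0.74. Spike-in scaling also called 17 receptor genes between the genotypes with FK228 and 3 in the interaction (Gria1, Gria3 and Grin2b). Among all genes it called, 0.747% were higher between the genotypes with FK228 and 0.221% in the interaction. Between the genotypes in solvent, DESeq2 and the absence of a filter called 2 genes each, Grin2b among them, and with FK228 the absence of a filter called 1, Grin2b. FK228 in wild type gave 7 calls with the stricter filter, which tested fewer genes. With the replicate number as a block it gave 9, against 12 in heterozygous cultures, 1 between genotypes in solvent, 0 with FK228 and 0 in the interaction. Over all genes tested, the block called 6771 for FK228 in wild type and 7376 in heterozygous cultures, against 8394 and 8297 without it. It called 211 of all genes between genotypes in solvent, 107 with FK228 and 0 in the interaction. The block lost the wild-type calls of Gabra3, Glrb, Grin3a, Grin3b and Gabrg1, and the heterozygous calls of Glrb, Grid1 and Gabbr1. Deviations of same-numbered libraries correlated between -0.231 and 0.169, and no label says whether a number marks a shared batch. With 1 library left out, calls ranged from 11 to 16 for FK228 in wild type, 12 to 16 for FK228 in heterozygous cultures, 1 to 2 between genotypes in solvent (2 without heterozygous solvent library 5), 0 to 1 with FK228 (1 without heterozygous FK228 library 5, Grin2b) and 0 to 0 in the interaction. The cause of these shifts was not tested. Depth limits the 12 untested members and genes near the 3-count floor, such as Grm8.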
